A study of Homo sapiens with 2 samples.

Results

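Monocarboxylate transporters carry lactate, pyruvate, ketone bodies and related small molecules across the plasma membrane. The members described here are 6 SLC16 genes, SLC16A1, SLC16A3, SLC16A7, SLC16A6, SLC16A9 and SLC16A10, and the chaperone genes BSG and EMB. These 8 genes, with 80 annotated transcripts, were taken by name from the 57894 genes and 197318 transcripts to which the deposited tables could be matched. They were selected from measured values: the set was drawn up with the knockout-to-parental expression differences of these same libraries known, so the differences of the members are given as a description and without a test.

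Total RNA was sequenced from HEK293 cells, a line of human embryonic kidney origin, as 2 libraries of LARP7 knockout cells and 2 libraries of the parental cells. LARP7 is the protein that protects the small nuclear RNA 7SK from degradation, and the study asked how its loss alters RNA levels and splicing. Both knockout libraries come from 1 clone, 1-11, so what else sets that clone apart from the parental cells cannot be told apart from the knockout. The source field of the knockout sample reads wildtype, and the genotype field was used instead. Cells of both groups grew in the same serum-supplemented medium, and the labels name no treatment.

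In the best-studied members of the family, transport is coupled to protons and runs in either direction, so the same protein can load or unload lactate according to the gradients across the membrane. SLC16A1, SLC16A3 and SLC16A7 encode MCT1, MCT4 and MCT2, of which MCT2 has the highest affinity for pyruvate and lactate and MCT4 is known for lactate export from glycolytic cells. These proteins reach the membrane with a single-pass immunoglobulin-family partner, basigin (BSG) for MCT1 and MCT4 and embigin (EMB) for MCT2. The other members of the set have other substrates: SLC16A10 encodes the aromatic amino acid and thyroid hormone transporter TAT1, SLC16A9 a carnitine transporter, and SLC16A6 encodes MCT7, which exports ketone bodies from the liver in zebrafish.

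SLC16A7 had the largest log2 change of the 8 members in the knockout cells. It lies on chromosome 12, at 59596067-59789855 on the plus strand (GRCh38), and its 16 annotated transcripts begin in 4 separate zones. The first zone starts at 59596067 and the zone of the transcript that held most reads, SLC16A7-201, starts 93270 bases further on at 59689337. RefSeq (GRCh38.p14) lists a promoter for each of these zones. The windows of 300 bases are shown on the plus strand because the reads divide unequally between the zones and the windows differ in their CpG content. CpG dinucleotides, the sites at which vertebrate DNA is methylated and which cluster at many housekeeping promoters, are in capitals.

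SLC16A7 upstream promoter, chr12:59595779-59596078: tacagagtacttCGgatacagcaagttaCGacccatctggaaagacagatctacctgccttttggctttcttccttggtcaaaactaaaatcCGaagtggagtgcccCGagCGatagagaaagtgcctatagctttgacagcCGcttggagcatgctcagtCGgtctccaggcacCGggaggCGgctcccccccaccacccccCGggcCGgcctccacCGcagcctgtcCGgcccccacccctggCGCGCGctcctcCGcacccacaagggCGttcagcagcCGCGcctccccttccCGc

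SLC16A7 promoter at the SLC16A7-201 zone, chr12:59689120-59689419: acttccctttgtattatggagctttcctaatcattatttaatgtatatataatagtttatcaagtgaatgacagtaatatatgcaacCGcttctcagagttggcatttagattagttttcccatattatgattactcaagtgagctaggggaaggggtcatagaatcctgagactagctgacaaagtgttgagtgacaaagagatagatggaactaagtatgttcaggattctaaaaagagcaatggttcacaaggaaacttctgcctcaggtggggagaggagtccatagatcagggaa

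The upstream window holds 21 CpG dinucleotides, and 62.3% of the 35116 RefSeq promoter windows of the same length hold as many or fewer. The window at the SLC16A7-201 zone holds 1 CpG, with 11.0% of promoters at or below that number. Neither window contains, on either strand, the GC box (GGGCGG), the TATA box (TATAAA) or the core of the hypoxia response element (ACGTG). The GC box letters occur in 45.0% of the promoters, the TATA box letters in 11.5% and the hypoxia core in 21.4%.

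SLC16A7 received 152 and 188 reads in the knockout libraries, against 15 and 26 reads in the parental libraries. The exact 95% Poisson intervals were 128.8 to 178.2 and 162.1 to 216.9 reads in the knockout libraries and 8.4 to 24.7 and 17.0 to 38.1 reads in the parental libraries, and they cover counting error only. Scaled to a common library size with TMM factors, its level was 8.87 and 11.1 CPM (reads per fixed number of library reads) in the knockout libraries and 0.852 and 2.06 CPM in the parental libraries. Every knockout library lay above every parental library, as for 23.5% of all genes tested by CPM. No counting interval of a knockout library met that of a parental library.

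The mean SLC16A7 level was 10.0 ± 1.59 CPM in knockout cells and 1.46 ± 0.857 CPM in parental cells (SD, n = 2 each). The fitted log2 change was 2.82 with a standard error of 0.42, a ratio of 7.06. These values chose the gene, so they are not a test of it. Without parental library 2 the SLC16A7 log2 change was 3.54, and without parental library 1 it was 2.27. With a library left out, its group has 1 library, and the fit takes the spread from the pair of the other group and assumes that the lone library varies like it. In RNA from bulk cells, more cells with a transcript and more transcript per cell cannot be told apart.

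**Figure D1:**
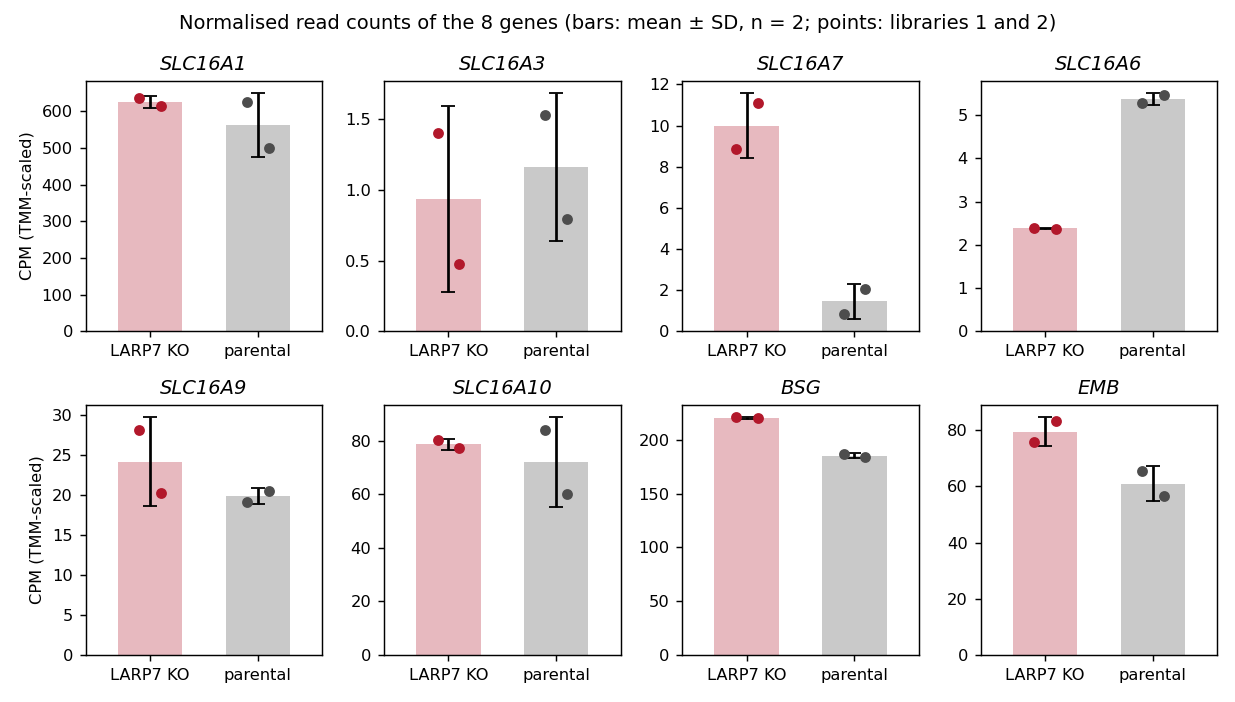
TMM-scaled read counts of the 8 genes in CPM, with the LARP7 knockout to the left of the parental cells in each panel. Bars are means, whiskers are the SD of 2 libraries and points are the libraries. SLC16A7 averaged 10.0 CPM in knockout cells and 1.46 CPM in parental cells, while SLC16A6 averaged 2.38 CPM in knockout cells and 5.38 CPM in parental cells.

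Nearly all SLC16A7 reads were assigned to 1 transcript. SLC16A7-201, of 11777 bases in 5 exons, encodes 478 residues, and 9650 of its bases, most of them in its last exon, are in no other SLC16A7 transcript. It held 143.08 and 179.01 reads in the knockout libraries and 13.63 and 26.0 reads in the parental libraries. That was 94.1 and 95.2% of the gene's reads in the knockout libraries and 90.9 and 100% in the parental libraries. Reads from the long last exon can be assigned to no other transcript, so the assignment does not show which start was used.

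The transcripts of the upstream zone took 8.92 and 8.99 reads in the knockout libraries and 0 in both parental libraries. In knockout library 1 these reads were divided among SLC16A7-216 (5.82 reads), SLC16A7-209 (2.17 reads) and SLC16A7-203 (0.93 reads), and in knockout library 2 SLC16A7-203 held all of them. SLC16A7-203 and SLC16A7-216 encode 478 residues, as SLC16A7-201 does. A transcript from a zone between these, SLC16A7-206, held 1.37 reads in parental library 1. At the SLC16A7 depth of the parental libraries, 15 and 26 reads in all, the share of upstream transcripts seen in the knockout libraries would amount to few reads, so a difference in that share was not detectable.

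Per length these few reads weigh more, because the upstream transcripts are short. SLC16A7-201 made up 54.1 and 75.0% of the gene's TPM (reads per transcript length, scaled to a fixed total in each library) in the knockout libraries, and 54.5 and 100% in the parental libraries. The ranges of the groups overlapped, and the TPM shares of SLC16A7 therefore rest on fewer than 10 reads in each library.

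**Figure D2:**
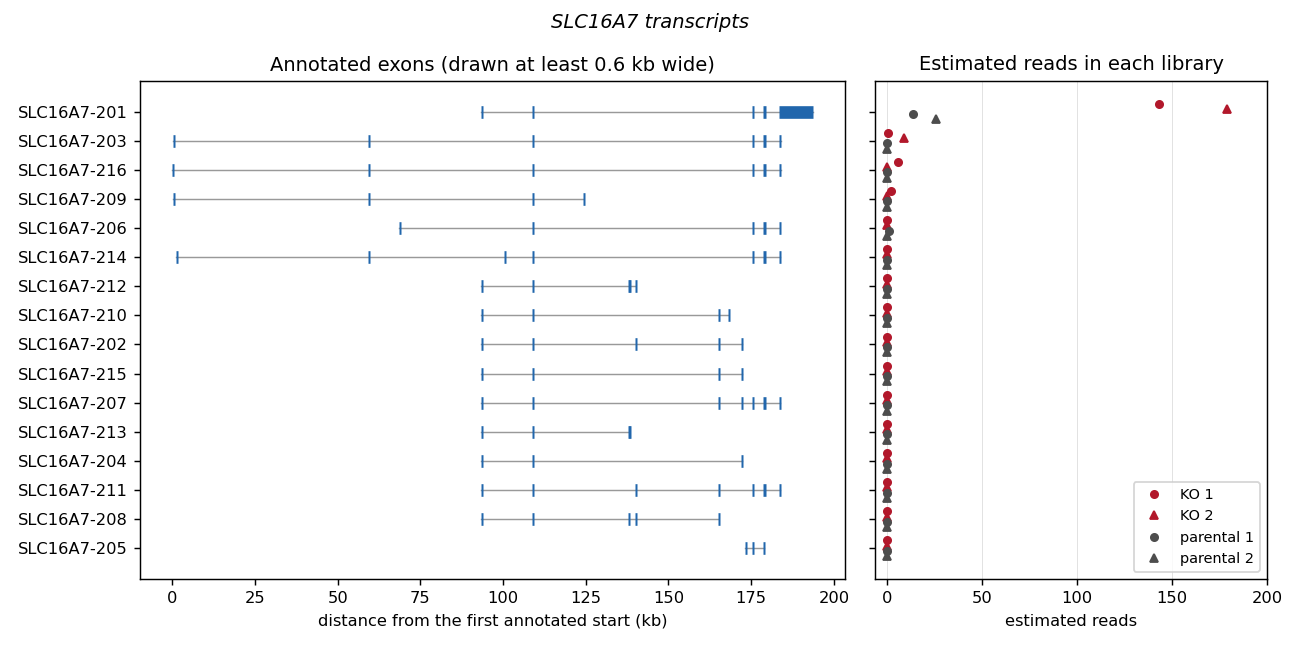
The 16 annotated SLC16A7 transcripts, drawn as exons (bars) along the distance in kilobases from the first annotated start, beside the estimated reads of each transcript in the 4 libraries. SLC16A7-201, with the long last exon, held 143.08 and 179.01 reads in the knockout libraries and 13.63 and 26.0 in the parental libraries, while no other transcript held 10 reads.

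No exon of another annotated gene overlaps SLC16A7, and the reads of the gene were whole numbers in every library to within 0.05 reads. The nearest tested protein-coding genes lie far off. LRIG3, 675545 bases before SLC16A7, had 54.9 and 55.4 CPM in the knockout libraries and 47.2 and 40.2 CPM in the parental libraries, a log2 change of 0.34 ± 0.14 (SE; edgeR adjusted p = 0.324). FAM19A2, 1918404 bases after it, had 1.11 and 1.48 CPM in the knockout libraries and 0.455 and 1.83 CPM in the parental libraries, a log2 change of 0.22 ± 0.72 (edgeR adjusted p = 0.927). The neighbours were not past the edgeR threshold (Benjamini-Hochberg adjusted p under 0.05 over all 18484 genes tested), except LRIG3 without parental library 1 (log2 change 0.45; edgeR adjusted p = 0.0254).

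Over the 4 libraries, 5 genes had the log2 CPM pattern most like that of SLC16A7, by the root mean square difference after centring each gene on its mean, among 12400 genes with an average log2 CPM of at least 2. SELENBP1, which encodes a selenium-binding protein, was the nearest, at 0.0222, with 7.59 and 9.88 CPM in the knockout libraries and 0.739 and 1.83 CPM in the parental libraries. AFF2 followed at 0.262, HAS2 at 0.299, B3GALT1 at 0.335 and SELENOP at 0.46. Each of them was higher in both knockout libraries than in both parental libraries, which a likeness to SLC16A7 entails.

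SLC16A1, the widely expressed proton-coupled lactate transporter MCT1, was by far the most abundant of the 3 lactate transporter genes of the set. It lies on chromosome 1 at 112911847-112957013 on the minus strand. Its level was 637.6 and 613.3 CPM in the knockout libraries, against 624.4 and 499.9 CPM in the parental libraries. The groups overlapped, with parental library 1 between the knockout libraries and parental library 2 the lowest of the 4. The means were 625.5 ± 17.2 CPM in knockout cells and 562.2 ± 88.0 CPM in parental cells (SD, n = 2 each), a log2 change of 0.15 with a standard error of 0.13. Its log2 change was -0.001 without parental library 2 and 0.32 without parental library 1.

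The transcript SLC16A1-201, which encodes the 500-residue protein, took 98.0 and 98.8% of the SLC16A1 reads in the knockout libraries and 98.3 and 97.7% in the parental libraries. An antisense gene, SLC16A1-AS1, shares 175 exonic bases with SLC16A1. It had 46.2 and 62.4 CPM in the knockout libraries and 61.7 and 83.1 CPM in the parental libraries, a log2 change of -0.41 ± 0.19 (SE; edgeR adjusted p = 0.375), and it passed the threshold with a replicate block (-0.41) and without parental library 1 (-0.62). The strand setting of the counting is not given in the sources used here, so reads on shared bases cannot be told apart.

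SLC16A3, the gene of the lactate exporter MCT4, was close to the limit of detection. Of the 22 transcripts annotated at chromosome 17, 82228397-82261129 on the plus strand, 7 had any read. The gene received 24 and 8 reads in the knockout libraries and 27 and 10 reads in the parental libraries. Its level was 1.40 and 0.473 CPM in the knockout libraries, and 1.53 and 0.794 CPM in the parental libraries. The groups overlapped, and in both of them library 1 was well above library 2. Its log2 change was -0.33 with a standard error of 0.71, and it turned to 0.25 without knockout library 2 and to 0.23 without parental library 1. CSNK1D, a kinase gene on the opposite strand with 482 exonic bases in common, had 1490.06 and 1305.25 reads in the knockout libraries and 1608.87 and 920.2 reads in the parental libraries (log2 change -0.004; edgeR adjusted p = 0.995). The microRNA gene MIR6787, which lies within SLC16A3, had 0 reads in every library.

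Taken as TPM within a library, SLC16A1 supplied 98.8 and 99.2% of the sum of SLC16A1, SLC16A3 and SLC16A7 in the knockout libraries, and 99.6 and 99.5% in the parental libraries. SLC16A7 supplied 0.664 and 0.654% in the knockout libraries, against 0.066 and 0.108% in the parental libraries. The ratio of SLC16A1 to SLC16A7 TPM was 148.7 and 151.7 in the knockout libraries and 1508.1 and 917.2 in the parental libraries. So at its knockout level SLC16A7 RNA was still a minor share of the lactate transporter RNA in these cells. The size of its share and of the ratios rests in part on few reads. In the knockout libraries 8.92 and 8.99 reads of short upstream transcripts supplied the SLC16A7 TPM beyond the 0.616 and 0.76 TPM of SLC16A7-201.

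The chaperone genes were each higher in both knockout libraries than in both parental libraries, as were 23.5% of all genes tested by CPM. Neither was past the edgeR threshold. BSG, on chromosome 19 at 571277-583493 on the plus strand, had 221.5 and 220.1 CPM in the knockout libraries, against 187.0 and 184.2 CPM in the parental libraries. The spread within each group was narrow, at 220.8 ± 0.99 CPM in knockout cells and 185.6 ± 1.98 CPM in parental cells (SD, n = 2 each). BSG had 3795 and 3720 reads in the knockout libraries and 3291 and 2320 reads in the parental libraries. At these counts, counting error alone is wider than this spread, so its narrowness is not a measure of precision. The log2 change of BSG was 0.25 with a standard error of 0.11, a ratio of 1.19. The antisense gene AC009005.1, with 140 exonic bases in common, had 2 and 7 reads in the knockout libraries and 7 and 8 reads in the parental libraries.

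EMB, on chromosome 5 at 50396192-50443248 on the minus strand, had 75.8 and 83.3 CPM in the knockout libraries, against 65.5 and 56.5 CPM in the parental libraries. Its means were 79.6 ± 5.3 CPM in knockout cells and 61.0 ± 6.35 CPM in parental cells (SD, n = 2 each), and its log2 change was 0.38 with a standard error of 0.13, a ratio of 1.3. Leaving out a library moved the log2 change of EMB to between 0.28, without parental library 2, and 0.49, without parental library 1. Part of its reads were fractional, shared with other genes. Its pseudogene EMBP1 held 49.03 and 30.08 reads in the knockout libraries and 35.26 and 25.03 in the parental libraries, against 711.97 to 1407.92 reads of EMB per library.

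Within a library, BSG TPM exceeded EMB TPM 10.3 and 9.31 times in the knockout libraries and 10.4 and 12.6 times in the parental libraries. The ratio of SLC16A1 to BSG TPM was 0.963 and 0.907 in the knockout libraries and 1.06 and 0.886 in the parental libraries, so the ranges of the groups overlapped and the transporter and its partner stood near parity in both genotypes. The ratio of EMB to SLC16A7 TPM was 14.9 and 18.0 in the knockout libraries and 136.3 and 82.1 in the parental libraries. EMB RNA thus exceeded the RNA of its known transporter partner in every library. The lower ratios in the knockout restate the SLC16A7 values that chose the gene, and SLC16A7 TPM rests in part on few reads.

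BSG reads were assigned almost wholly to transcripts of 1 start zone, which, as for SLC16A7, does not by itself show the start used. Transcripts that begin at 572565 to 572623 took 3754.0 and 3681.36 reads in the knockout libraries and 3261.54 and 2305.09 reads in the parental libraries. Those that begin 1288 bases upstream, at 571277 to 571310, took 5.31 and 7.96 reads in the knockout libraries and 11.71 and 0 reads in the parental libraries. The RefSeq promoter of the zone with most reads is shown in the same way, for comparison with the SLC16A7 windows, since BSG is one of the most abundant members and SLC16A7 one of the least.

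BSG promoter at the zone with most reads, chr19:572346-572645: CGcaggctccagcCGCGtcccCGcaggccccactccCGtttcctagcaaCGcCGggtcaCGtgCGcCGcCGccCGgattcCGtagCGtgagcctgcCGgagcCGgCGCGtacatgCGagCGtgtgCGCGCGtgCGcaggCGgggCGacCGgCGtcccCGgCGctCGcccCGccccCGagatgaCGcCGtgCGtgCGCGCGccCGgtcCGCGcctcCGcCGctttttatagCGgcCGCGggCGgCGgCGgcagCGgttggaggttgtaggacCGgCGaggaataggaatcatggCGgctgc

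This window holds 54 CpG dinucleotides, and 99.6% of promoters hold as many or fewer. It contains the GC box at 3 places, the TATA box letters at 1 and the hypoxia core at 1, searched on both strands, with a palindrome counted as 1 site, and no match overlaps another motif. The SLC16A7 windows, with 21 and 1 CpG, hold none of these motifs. Among the 8 members, RefSeq promoters were matched for 5 (BSG, SLC16A3, SLC16A7, SLC16A9 and SLC16A10), with 12 windows in all. SLC16A3, close to the limit of detection, has a window at chr17:82228792-82229091 with 51 CpG. It holds the GC box at 3 places and the hypoxia core at 2. The upstream BSG window, chr19:571033-571332, holds 16 CpG and none of these motifs. A tie between promoter sequence and level was not tested.

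The BSG transcripts divided between a coding form and a form annotated for nonsense-mediated decay, the pathway that degrades RNAs with an early stop codon. BSG-203, which encodes the common form of 269 residues, supplied 61.0 and 61.1% of BSG TPM in the knockout libraries and 58.8 and 50.8% in the parental libraries. BSG-216, the decay-annotated transcript of 769 bases, supplied 28.0 and 25.6% in the knockout libraries, against 33.6 and 40.0% in the parental libraries. The groups did not overlap for either transcript. The means for BSG-216 were 26.8 ± 1.68% in knockout cells and 36.8 ± 4.48% in parental cells (SD, n = 2 each). Every base of BSG-203 and of BSG-216 is also in another BSG transcript, so the division of reads between them is an estimate. As a share of reads BSG-216 held 14.0 and 12.9% in the knockout libraries and 17.4 and 22.6% in the parental libraries. The retained-intron transcript BSG-210 supplied 5.89 and 6.72% of BSG TPM in the knockout libraries and 2.96 and 5.06% in the parental libraries, so the transcripts of BSG without the full coding sequence differed in the direction of their shares. BSG-201, the form of 385 residues known from retinal photoreceptors, held 13.66 and 33.52 reads in the knockout libraries and 27.2 and 33.99 in the parental libraries, ranges that overlapped.

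EMB-201, which encodes 327 residues, supplied 84.6 and 85.3% of EMB TPM in the knockout libraries and 90.3 and 88.0% in the parental libraries. The retained-intron transcript EMB-202 supplied 15.4 and 12.8% in the knockout libraries, against 9.72 and 10.2% in the parental libraries. The groups did not overlap for EMB-202. For the BSG, EMB and SLC16A10 transcript shares, the portion of all transcripts without overlap was not counted. By CPM, 23.5% of all genes tested had both knockout libraries above both parental ones, and 22.7% had both below. Nothing is therefore read from a lack of overlap in these transcript shares.

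SLC16A6 was the 1 member whose knockout libraries both lay below the parental libraries, as for 22.7% of all genes tested by CPM. It lies on chromosome 17 at 68267026-68291267 on the minus strand, and had 40.87 and 39.76 estimated reads in the knockout libraries, against 93.47 and 69.44 in the parental libraries. Its level was 2.39 and 2.37 CPM in the knockout libraries and 5.28 and 5.48 CPM in the parental libraries. The exact Poisson intervals of its unscaled estimated reads were 29.3 to 55.5 and 28.4 to 54.2 in the knockout libraries. They were 75.5 to 114.4 and 54.1 to 87.8 in the parental libraries, and cover counting error only. The interval of parental library 2, the smallest library, met both knockout intervals. At these counts, counting error alone is wider than the spread within each pair, so its narrowness is not a measure of precision. The log2 change was -1.17 with a standard error of 0.33, and the parental mean was 2.26 times the knockout mean.

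The reads of SLC16A6 were not whole numbers, so some were shared with other genes. Its pseudogene SLC16A6P1 had 93.13 and 107.24 reads in the knockout libraries and 143.53 and 122.56 reads in the parental libraries, a log2 change of -0.61 ± 0.26 (SE; edgeR adjusted p = 0.347). ARSG, a sulfatase gene on the opposite strand with 144 exonic bases in common, had 3.15 and 4.20 CPM in the knockout libraries and 4.55 and 10.8 CPM in the parental libraries, a log2 change of -1.05 ± 0.43 (SE; edgeR adjusted p = 0.321), past the threshold with a replicate block (-0.96) and without parental library 1 (-1.56). Both had log2 changes of the same sign as SLC16A6, and their part in its values was not tested. The main transcript also differed between the knockout libraries: SLC16A6-201 supplied 74.0 and 14.2% of SLC16A6 TPM in the knockout libraries, and 56.5 and 55.7% in the parental libraries.

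SLC16A10, the TAT1 gene, lies on chromosome 6 at 111087503-111231194 on the plus strand. It had 80.1 and 77.2 CPM in the knockout libraries and 84.0 and 60.0 CPM in the parental libraries, so the parental libraries lay on either side of the knockout ones. The log2 change was 0.12 with a standard error of 0.17. It was -0.098 without parental library 2 and 0.39 without parental library 1. The antisense gene AL360227.1, with 177 exonic bases in common, had 0 reads in every library.

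The full-length SLC16A10 protein of 515 residues is encoded by SLC16A10-202, which supplied 41.9 and 52.4% of the gene's TPM in the knockout libraries and 39.7 and 44.3% in the parental libraries. SLC16A10-201, of 10051 bases, encodes only 201 residues and supplied 25.2 and 25.3% in the knockout libraries and 30.0 and 38.3% in the parental libraries. Of its bases, 8206 are in no other SLC16A10 transcript, so reads from them can be assigned to no other. Its share, by TPM or by reads, therefore does not show how much RNA carries the short coding sequence. SLC16A10-204, of 205 residues, supplied 32.9 and 22.3% in the knockout libraries and 24.0 and 5.21% in the parental libraries. By TPM share the groups overlapped for SLC16A10-202 and SLC16A10-204 and not for SLC16A10-201. As a share of reads, SLC16A10-201 held 69.4 and 65.8% in the knockout libraries and 73.6 and 77.0% in the parental libraries. SLC16A10-202 held 26.7 and 31.7% of reads in the knockout libraries and 22.7 and 20.8% in the parental libraries. By reads the groups therefore did not overlap for this transcript either. Every base of SLC16A10-202 is also in another SLC16A10 transcript, so its share is an estimate.

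SLC16A9, the carnitine transporter gene, lies on chromosome 10 at 59650761-59736002 on the minus strand. It had 28.2 and 20.2 CPM in the knockout libraries and 19.2 and 20.6 CPM in the parental libraries. Knockout library 1 was the highest of the 4, and knockout library 2 lay between the parental ones. The log2 change was 0.28 with a standard error of 0.2, and without knockout library 1 it was 0.029. SLC16A9-201, which encodes 509 residues, supplied 90.6 and 81.7% of SLC16A9 TPM in the knockout libraries and 96.2 and 90.3% in the parental libraries.

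The order of the members by level was read within each group from TPM, since TPM corrects for transcript length. In knockout cells BSG came first with 172.7 TPM, followed by SLC16A1 with 161.6 TPM, SLC16A10 with 18.1 TPM and EMB with 17.6 TPM. SLC16A9 followed with 6.3 TPM, SLC16A7 with 1.08 TPM, SLC16A6 with 0.779 TPM and SLC16A3 with 0.541 TPM. The ranges of the 2 knockout libraries were apart between all neighbours in this order except SLC16A10 and EMB, and SLC16A6 and SLC16A3.

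In parental cells the order began in the same way, with BSG at 114.6 TPM, SLC16A1 at 112.5 TPM, SLC16A10 at 10.9 TPM, EMB at 10.1 TPM and SLC16A9 at 3.85 TPM. It ended with SLC16A6 at 1.21 TPM, SLC16A3 at 0.417 TPM and SLC16A7 at 0.0944 TPM. BSG and SLC16A1 did not differ beyond their spread, nor did SLC16A10 and EMB. SLC16A7 was therefore last of the 8 in parental cells and sixth in knockout cells. The sixth place rests on 8.92 and 8.99 reads of short upstream transcripts in the knockout libraries. SLC16A7-201 alone had 0.616 and 0.76 TPM there, a range that overlaps that of SLC16A6 (0.6517 and 0.9055 TPM).

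Among 19815 protein-coding genes, SLC16A7 ranked 11732 and 11908 by TPM in the knockout libraries and 14177 and 14056 in the parental libraries. BSG ranked 315 and 300 in the knockout libraries and 411 and 317 in the parental libraries. SLC16A1 ranked 326 and 328 in the knockout libraries and 382 and 370 in the parental libraries. The chaperone BSG and the transporter SLC16A1 were thus among the most abundant coding RNAs of HEK293 cells in both genotypes.

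TPM was not used to measure change between the groups, because a fixed total is shared with abundant small RNAs. Where TPM of both groups stand side by side, they are given as levels only. Transcripts of protein-coding genes held 50.03 and 46.14% of TPM in the knockout libraries and 46.37 and 34.4% in the parental libraries, and a single transcript held 17.5% in parental library 2. Put on the protein-coding total alone, SLC16A7 had 2.28 and 2.20 TPM in the knockout libraries and 0.189 and 0.294 TPM in the parental libraries. On that scale SLC16A1 had 338.6 and 333.1 TPM in the knockout libraries and 285.1 and 269.5 TPM in the parental libraries.

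**Figure D3:**
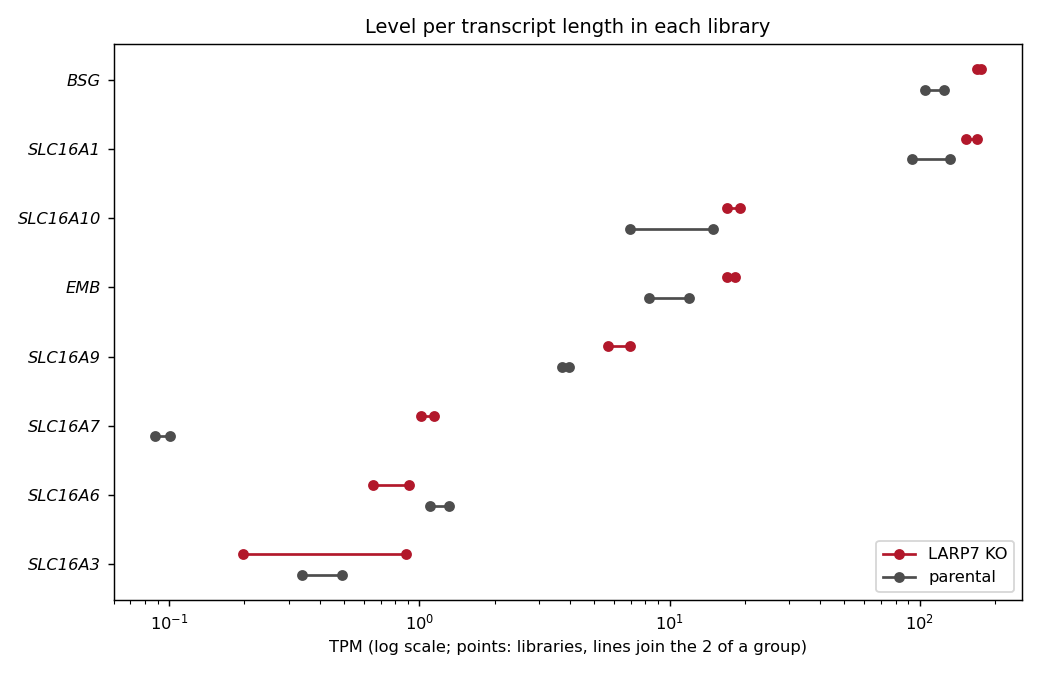
TPM of each gene on a log scale, with the LARP7 knockout (red) drawn above the parental cells (grey) and the 2 libraries of a group joined by a line. SLC16A7 had 1.14 and 1.01 TPM in the knockout libraries and 0.0877 and 0.101 TPM in the parental libraries, while BSG and SLC16A1 lay near or above 100 in every library (lowest 92.7, SLC16A1 in parental library 2).

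Counted over the 8 members, 1 (SLC16A7) was past the threshold in the higher direction, where the background was 0.33%, and 0 in the lower, where it was 0.503%; in either direction 0.833% of the genes tested were past it. By CPM, 3 members (SLC16A7, BSG and EMB) had both knockout libraries above both parental ones, against 23.5% of all genes, and 1 (SLC16A6) had both below, against 22.7%. The log2 change was above 0 for 6 of 8 members, with a median of 0.2, beside 50.3% of all genes tested and a median of 0.002. As the members were chosen on this comparison, nothing is read from these counts. Over all genes 61 were higher and 93 lower. Without parental library 1 the counts were 1133 higher and 1132 lower, and without parental library 2 they were 853 and 972.

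The other genes of lactate, pyruvate and ketone metabolism were taken as 6 lists of 68 genes, of which 60 passed the filter on low counts. By edgeR 0 rose and 1 fell in the knockout, with limma voom 0 and 1 and with DESeq2 1 and 4, and at an unadjusted edgeR p under 0.05 the counts were 3 and 7. Over all 18484 genes tested, 6.58% were higher and 7.67% lower at that unadjusted p. Of the tested genes, 27 had a log2 change above 0 and 33 below, with a median of -0.041. Among the other SLC16 and sodium-coupled monocarboxylate transporters, 0 of 6 tested passed the edgeR threshold, and 1 higher and 1 lower had an unadjusted p under 0.05. The orphan transporter gene SLC16A4 had 19.0 and 22.0 CPM in the knockout libraries and 17.2 and 27.1 CPM in the parental libraries (log2 change -0.11 ± 0.23 SE; edgeR adjusted p = 0.887). SLC16A14, also an orphan, had 23.9 and 25.4 CPM in the knockout libraries and 16.5 and 17.1 CPM in the parental libraries (log2 change 0.56 ± 0.17 SE; edgeR adjusted p = 0.186), and passed the threshold with a replicate block (0.56) and without parental library 2 (0.58). SLC16A8, the MCT3 gene of the retinal pigment epithelium, had a log2 change of -1.0 ± 0.94 (SE; edgeR adjusted p = 0.682). In the main fit of all 4 libraries, without a replicate block, no transporter of this list was past the threshold.

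The lactate and pyruvate list, the enzymes that make and use what the transporters carry, had 0 of 17 tested genes past the edgeR threshold, and 1 higher and 1 lower at an unadjusted p under 0.05. LDHB, a lactate dehydrogenase subunit, had 674.8 and 717.1 CPM in the knockout libraries and 759.8 and 671.6 CPM in the parental libraries (log2 change -0.04; edgeR adjusted p = 0.914). LDHA, the other main subunit, had 853.2 and 757.1 CPM in the knockout libraries and 1074 and 691 CPM in the parental libraries (log2 change -0.13; edgeR adjusted p = 0.802). The groups overlapped for both, and without parental library 2 LDHA was past the threshold (log2 change -0.42). PDK4, a kinase that restrains pyruvate dehydrogenase, had 5.43 and 4.20 CPM in the knockout libraries and 0.852 and 3.10 CPM in the parental libraries (log2 change 1.33 ± 0.55 SE; edgeR adjusted p = 0.327). PDK4 passed the threshold with a replicate block (1.46) and without parental library 2 (2.48).

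In glycolysis and glucose uptake 0 of 17 genes passed by edgeR, and 0 higher and 3 lower had an unadjusted p under 0.05. The abundant enzymes GAPDH and TPI1 had log2 changes of 0.1 and 0.045 (edgeR adjusted p = 0.766 and 0.925). ENO2, the neuronal enolase, had 0.292 and 0.355 CPM in the knockout libraries and 1.87 and 2.14 CPM in the parental libraries (log2 change -2.6 ± 0.62 SE; edgeR adjusted p = 0.119), and passed the threshold with no filter on low counts and with a replicate block. With 5 and 6 reads in the knockout libraries, ENO2 entered the main fit only through the parental libraries (33 and 27 reads).

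The 1 list gene past the threshold was BDH1, in the ketone body list of 7 tested genes. BDH1 encodes the mitochondrial dehydrogenase that interconverts acetoacetate and beta-hydroxybutyrate, both substrates of monocarboxylate transporters. It had 0 and 1 reads in the knockout libraries, against 44 and 19 reads in the parental libraries (edgeR adjusted p = 0.0446). BDH1 passed the filter on low counts only through the parental libraries, where it is high. Its call depends on that filter and is no independent support for a change. Scaled for library size, the knockout-to-parental ratio of the read sums was 0.0141, with an exact 95% interval of 0.000351 to 0.0814 that covers counting error only. Under the stricter filter on low counts or with an offset for transcript length, no list gene was past the threshold in this direction. ACAT1, a thiolase of ketone body breakdown, and BDH2, a cytosolic dehydrogenase, had log2 changes of 0.085 and 0.38 (edgeR adjusted p = 0.806 and 0.362).

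Among the basigin relatives and partners, 0 of 5 tested genes passed by edgeR, and 0 higher and 1 lower had an unadjusted p under 0.05. PPIA, which encodes the basigin ligand cyclophilin A, had 654.4 and 639.2 CPM in the knockout libraries and 746.5 and 639.6 CPM in the parental libraries (log2 change -0.1; edgeR adjusted p = 0.745). SLC7A5, an amino acid transporter subunit found in complexes with basigin, had 179.1 and 158.3 CPM in the knockout libraries and 247.9 and 259.7 CPM in the parental libraries (log2 change -0.59 ± 0.12 SE; edgeR adjusted p = 0.0737). It passed the threshold with DESeq2, with no filter, with a replicate block and without either parental library (-0.56 to -0.63). Of 8 transcription factors and coactivators tied to the transporter genes, 0 passed by edgeR, and 1 higher and 0 lower had an unadjusted p under 0.05. HIF1A, the hypoxia-inducible factor subunit, had 218.2 and 220.4 CPM in the knockout libraries and 164.3 and 124.7 CPM in the parental libraries (log2 change 0.6 ± 0.15 SE; edgeR adjusted p = 0.132). It passed under the same alternatives as SLC7A5 (0.41 to 0.81). MYC, a known activator of SLC16A1, had a log2 change of 0.018 (edgeR adjusted p = 0.971) and ESRRA, a nuclear receptor of energy metabolism, one of -0.61 ± 0.35 (SE; edgeR adjusted p = 0.483).

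**Figure D4:**
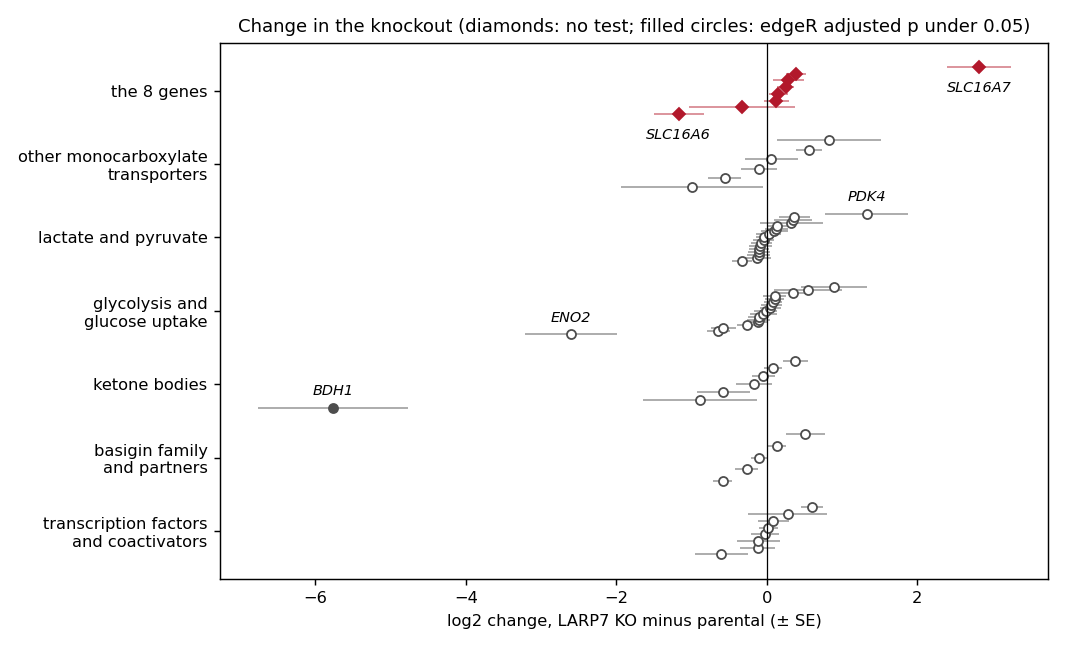
Log2 change in the LARP7 knockout over the parental cells, with its standard error, for the 8 genes (red diamonds) and the 60 tested genes of the 6 lists (grey circles); filled grey points passed the edgeR threshold, and the 8 genes carry no test. SLC16A7 lies at 2.82 and BDH1 at -5.77, a fitted value that depends on the prior count because the knockout libraries held 0 and 1 reads.

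The libraries held 16838501 and 16218587 estimated reads in the knockout and 18483220 and 12851942 in the parental cells. The targeted gene, LARP7, had 36.1 and 31.9 CPM in the knockout libraries and 59.8 and 46.5 CPM in the parental libraries, below the parental libraries but not past the threshold (edgeR adjusted p = 0.135), which it passed with DESeq2, with no filter, with a replicate block and without either parental library. The RNA it binds, 7SK, had 169.5 and 204.5 CPM in the knockout libraries and 5572 and 5481 CPM in the parental libraries. Of 6 kidney lineage markers reported in HEK293 cells, 5 passed the filter and none was past the threshold, with summed levels of 66.1 and 68.9 CPM in the knockout libraries and 58.7 and 51.6 CPM in the parental libraries. The 4 neuronal markers reported in this line summed to 93.7 and 107 CPM in the knockout libraries and 141 and 176 CPM in the parental libraries. Only 1 of the 4 was past the threshold: NEFM, with 7.76 and 8.58 CPM in the knockout libraries and 49.4 and 73.6 CPM in the parental libraries. The log2 change was -2.6 for ENO2, -0.079 for NEFL and 0.82 for NES, so the sum is no common fall. The part of these markers in the SLC16A7 values was not tested. Markers of blood cells summed to at most 1.24 CPM, those of hepatocytes to at most 0.355 CPM and those of muscle to at most 0.0592 CPM, and both endothelial markers were at 0 in every library.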

How the data were processed

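Total RNA of LARP7 knockout (clone 1-11) and parental HEK293 cells was extracted with TRIzol and made into libraries with the Ovation SoLo kit, per the labels' protocols, with 2 libraries per group. The deposited tables give estimated counts and TPM per transcript, as the file headers name them, and an effective length. Per the submitters' processing notes the tools included cutadapt 1.6, STAR 2.5.3a, SAMtools 1.3.1, Salmon 1.6 and edgeR 3.24.3, with build hg38; the strand setting is not given in the sources used here.

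Transcript identifiers were matched to GENCODE v29 (GRCh38): 684 of 198002 had no match and held at most 0.0711% of reads. Estimated counts were summed per gene, rounded, filtered with filterByExpr, scaled with TMM factors and tested with edgeR 4.0.16 (R 4.3.3, quasi-likelihood test, Benjamini-Hochberg adjusted p under 0.05); CPM use the same factors, and the standard error is the log2 change over the root of F. TPM were summed per gene. The steps were tested on simulated data with 200 changed genes per draw, all above a minimum level. Of the 2-fold changes 61.0% were called and of the 4-fold changes 91.8%. Unchanged genes made up 8.95% of the calls, above the 5% aimed at. Salmon divides reads among similar transcripts, an error the tests do not see. Fragments estimated from effective lengths were 232.9 and 225.8 bases in the knockout libraries and 217.0 and 206.7 bases in the parental libraries, so an offset for length was one alternative. The others were DESeq2 1.42.0, limma 3.58.1 (voom), other scalings and filters, a replicate block and leave-one-out fits over the libraries.

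The members and lists were chosen with earlier results of these data known. The named genes were fixed by rule: all members, list genes past the threshold, the 2 highest by TPM and the largest log2 change of each list, neighbours of SLC16A7, genes overlapping a member, and the 5 patterns nearest to SLC16A7; pseudogenes of members, and the kidney and neuronal markers, are given beside the results they touch. Nothing states that the libraries of a group are separate cultures, so p-values measure a spread that may be technical. Within each group, libraries differed by more than counting error (chi-square per degree of freedom 8.01 for the knockout and 27.28 for the parental pair).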

Additional observations from a re-analysis of the deposited data

How the results depend on the processing

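Depth limits SLC16A3, SLC16A6 and parental SLC16A7, at under 100 reads per library, and 2 libraries per group with 1 knockout clone limit every comparison. The log2 change of SLC16A7 was 2.27 to 3.54 when a library was left out and 2.81 to 3.05 otherwise, as a description of values that chose the gene. Fits with a library left out take their spread from 1 pair of libraries. Genes higher numbered 61, against 187 with DESeq2, 106 with library size alone, 371 with no filter and 34 with the length offset; leaving out a library gave 66 to 1133. Genes lower numbered 93, against 272 with DESeq2, 460 with no filter and 56 with the length offset; leaving out a library gave 128 to 1132. With library size alone the lower count was 82, so the split turned to more higher than lower. Of the list genes, 0 were higher, against 1 with DESeq2 and 1 with no filter, and 0 to 3 without a library. Lower were 1, against 4 with DESeq2, 5 with no filter, 0 with the stricter filter, 0 with the length offset and 1 to 9 without a library.

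In the paired fit with a replicate block, 768 genes were higher and 888 lower, with 3 and 5 of the lists. Deviations of same-numbered libraries correlated at 0.276 over 10540 genes, but the labels give the numbers no meaning and there are 2 pairs. The log2 change was 2.86 for SLC16A7, -1.17 for SLC16A6 and 0.38 for EMB in this fit.

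Leaving out a library turned the direction of 3 members: the log2 changes ranged from -0.001 to 0.32 for SLC16A1, from -1.3 to 0.25 for SLC16A3 (0.23 without parental library 1) and from -0.098 to 0.39 for SLC16A10. The cause was not tested. Of the alternative log2 changes of members, 4 changed sign. For the other named genes the alternatives were added after seeing the data, and values near 0 changed sign. Leaving out a library gave -0.408 to 0.25 for SLC16A4, -2.46 to 0.32 for SLC16A8, -0.13 to 0.048 for LDHB, -0.42 to 0.22 for LDHA, -0.051 to 0.27 for GAPDH, -0.13 to 0.23 for TPI1, -0.21 to 0.012 for PPIA, -0.101 to 0.14 for MYC, -0.498 to 1.49 for FAM19A2 and -0.16 to 0.17 for CSNK1D. LDHB was 0.054 with library size alone and FAM19A2 -0.072 with the length offset. CSNK1D was 0.09 with library size alone, 0.007 with no filter, 0.049 with the length offset and 0.003 with the replicate block. BDH1 lost its call with the length offset (-5.6, adjusted p = 0.113) and was not tested under the stricter filter. Of the alternative differences in transcript share, 88 moved by less than the spread between libraries and 17 by more. On the protein-coding total the TPM of all 8 members moved by more than that spread in both groups. Rescaling to this smaller total raises the TPM of every gene, so the move follows from the change of scale.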
